A study of Mus musculus with 2 samples.

Results

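Cycling T cells were examined among CD45+ leukocytes that had been sorted from mouse brain at postnatal day 21 and profiled by single cell RNA sequencing. A barcode was taken as a T cell when at most 15% of its unique molecular identifiers (UMIs, each 1 captured transcript) were mitochondrial, when it held at least 1 UMI of Cd3d, Cd3e or Cd3g, fewer than 2 of Cd79a and Cd79b, and less than 1% of S100a8 and S100a9. A T cell was taken as cycling when Mki67, Top2a and Birc5 together gave at least 2 UMIs, and as non-cycling when they gave 0. This rule found 64 cycling cells among 1118 T cells, out of 2478 barcodes within the mitochondrial limit and 2498 in all. The WT library held 16 cycling, 276 non-cycling and 11 T cells with 1 such UMI, and the twi library held 48, 687 and 80.

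WT cells came from brains of C57Bl/6 littermates (C57BL/6J in the study methods) with the genotype galc+/+, and twi cells from galc-/- animals of the same strain and age, the twitcher model of globoid cell leukodystrophy. Neither group was treated. Each genotype was represented by 1 library of cells pooled from several animals, so no replicate exists, no test was possible, and every interval below is a 95% interval that covers counting error only. The CD45+ sort kept leukocytes of every kind and took out most neural cells, and although the labels name CD4+ cells at the loading step, B cells and CD8+ T cells were present in both libraries. Galc itself gave 4 UMIs in the WT library, 8 in the twi library and 0 in the cycling T cells of either, so it does not check the genotype here. No barcode was shared between the libraries (0 in common).

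A T cell that divides leaves quiescence under cyclin D kinases, copies its DNA in S phase with enzymes whose genes are driven by E2F factors, and then builds a spindle and separates its chromosomes in G2 and M phase. Many G2/M genes are switched on late in the cycle through a short promoter element, the cell cycle homology region or CHR. In T cells that meet antigen, division usually goes with a change from naive to effector genes, such as granzymes and chemokines.

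Most of the cells met their label by Stmn1, a gene that the rule did not use, while 1 WT and 12 twi cells held none of its UMIs. Stmn1, which encodes the microtubule-destabilising protein stathmin, gave from 0 to 43 UMIs per cycling WT cell, with a median of 10, and was seen in 15 of 16 cells. In twi it gave from 0 to 81 UMIs, with a median of 5, and was seen in 36 of 48 cells (75%). Only 15.9% of WT and 10.8% of twi non-cycling T cells carried a Stmn1 UMI. Neutrophils carried one in 6.49% and 4.69% and B cells in 14.1% and 12.1%, and neither is a clean background, since some B cells passed the cycling limit and 8 of 231 WT neutrophils carried Mki67. Its level was 1864 CPM (UMIs of the gene per 1000000 UMIs of the group) in cycling and 64.9 CPM in non-cycling WT cells, a ratio of 28.7 (21.1–39.6), and 1457 against 35.3 CPM in twi, a ratio of 41.3 (33.0–52.1). Cd3e, a chain of the T cell receptor complex that was 1 of 3 alternatives in the gate, was seen in 11 of 16 and 41 of 48 cycling cells. The 3 Cd3 genes together gave a median of 9.5 UMIs per cell in WT (1 to 53) and 18 in twi (1 to 43).

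The 3 gate genes chose the cells, so their values only describe them. Mki67, which coats mitotic chromosomes, gave 0 to 8 UMIs per WT cell with a median of 2, and 0 to 12 per twi cell with a median of 2. Top2a, the topoisomerase that untangles replicated DNA, gave a median of 7.5 UMIs in WT (0 to 22) and 3 in twi (0 to 32). Birc5, the survivin subunit of the chromosomal passenger complex, gave a median of 3.5 in WT (0 to 17) and 2 in twi (0 to 16). Summed over the 3 genes, WT cells ran from 2 to 32 UMIs with a median of 13.5, and twi cells from 2 to 51 with a median of 6.5. At least 5 gate UMIs were present in 14 of 16 WT cells but in 27 of 48 twi cells (56.2%), and 13 of the twi cells lay exactly at the limit of 2 against 1 WT cell.

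In twi the cells just inside and just outside the limit had similar values. Those with 2 gate UMIs held 2748 CPM of the S-phase list and 2476 CPM of the G2/M list (gate genes left out of both), and the 80 cells with 1 UMI held 2337 and 1982 CPM. Non-cycling twi cells held 1287 and 1479 CPM, whereas the 19 cells with 10 or more gate UMIs held 6777 and 17696 CPM. Stmn1 followed the same steps, at 35.3, 157, 302 and 2035 CPM for 0, 1, 2 and 10 or more gate UMIs. In WT the 11 cells with 1 UMI held 1392 CPM of S and 2279 CPM of G2/M transcripts, and the 10 cells with 10 or more held 5121 and 20398 CPM. Of the 13 twi cells at the limit some held as few cycle transcripts as non-cycling cells, the lowest with 1 S and 3 G2/M UMIs. The twi gate thus took in more cells with few cycle transcripts than the WT gate.

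Cycling cells were deeper than the T cells around them. They held a median of 4405.5 UMIs in WT (1795 to 24127) and 6389.5 in twi (1332 to 21711), against 2767 and 3433 in non-cycling cells. The mean per cell was 2.12 times higher in WT and 2.03 times higher in twi, so on a scale of UMIs per cell every log2 ratio of cycling over non-cycling cells below is higher by 1.09 or 1.02. Levels are given as CPM, which sets that difference aside. In all, cycling cells held 102445 UMIs in WT and 365731 in twi, and non-cycling cells 832083 and 2577135.

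The first question was whether T cells in the twi brain were dividing more often. In WT 5.28% of T cells cycled (3.05–8.43%) and in twi 5.89% (4.37–7.73%), which gives a ratio of shares of 1.12 (0.651–1.93). When each cell was thinned to 1000 UMIs the gate held 11 of 268 WT T cells (4.10%) and 18 of 757 twi T cells (2.38%), a ratio of 0.579 (0.283–1.20). With at least 5 gate UMIs the shares were 4.62% and 3.31%, and the T cells with a single gate UMI made up 3.63% of WT and 9.82% of twi T cells. A difference in the share of T cells in cycle was therefore not detectable at this depth, and its direction turned with the limit. Outside the gate, which rests mostly on G2/M genes, 55 of 287 WT (19.2%) and 305 of 767 twi T cells (39.8%) held 5 or more S-list UMIs. That count was not made at equal depth, and in non-cycling cells the medians were 2 and 4 S-list UMIs and the levels 1108 and 1287 CPM. Of all kept cells, cycling T cells were 1.26% (WT) and 3.98% (twi), a ratio of 3.16 (1.82–5.50), beside T cells as a whole at 23.8% and 67.5%. B cells, defined by at least 2 UMIs of Cd79a and Cd79b and no Cd3 UMI, passed the same cycling limit in 34 of 555 WT cells (6.13%) and 11 of 149 twi cells (7.38%).

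Lineage differed between the libraries when all cells were counted, and the order turned among the few cells with a Y transcript and no Xist. Cd8a and Cd8b1 encode the CD8 coreceptor of cytotoxic T cells, and Cd4 that of helper T cells. A Cd8 UMI without Cd4 was found in 6 of 16 cycling WT cells (37.5%, 15.2–64.6%) and in 36 of 48 cycling twi cells (75%, 60.4–86.4%), a ratio of 2 (1.17–4.12). Among non-cycling cells the shares were 34.8% and 50.8%, a ratio of 1.46 (1.23–1.75). Within twi, CD8+ cells were thus 1.48 times as frequent among cycling as among non-cycling T cells (1.19–1.72), and the same ratio was 1.08 in WT (0.523–1.83). Cd4 without Cd8 was found in 5 cycling WT cells (31.2%) and 3 cycling twi cells (6.25%), a ratio of 0.200 (0.0583–0.698), with 15.2% and 9.32% among non-cycling cells. With cells thinned to 1000 UMIs and kept in their groups the CD8+ shares were 68.8% of cycling and 42.1% of non-cycling twi cells, and 18.8% and 29.2% in WT. Among cycling cells with a Y transcript and no Xist the order was the other way, with 60% CD8+ of 10 WT cells (26.2–87.8%) and 55.6% of 9 twi cells (21.2–86.3%). Xist was seen in 0 of 16 cycling WT cells, so in WT this filter dropped only cells without a Y UMI. The WT cells it dropped held no Cd8 UMI, so the turn rests in part on which WT cells had a detected Y UMI. As a background, 0.541% of WT and 10.1% of twi B cells carried a Cd8 UMI, and so did 1.3% of WT and 14.1% of twi neutrophils.

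**Figure D1:**
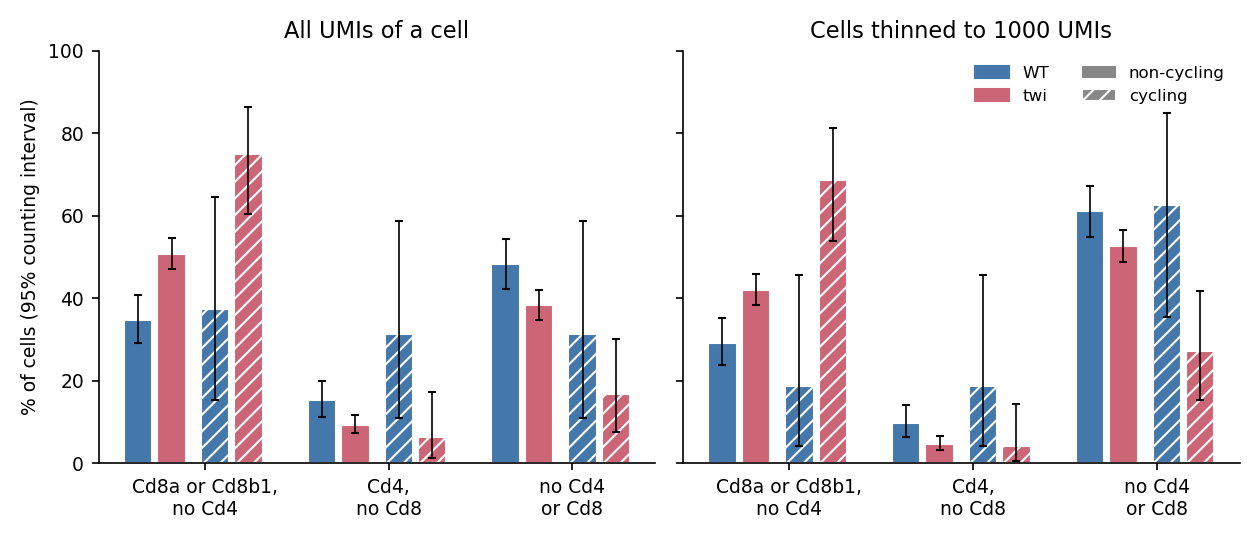
Percent of cells (y axis) with Cd8a or Cd8b1 and no Cd4, with Cd4 and no Cd8, or with neither, in non-cycling (plain bars) and cycling (hatched bars) T cells of WT (blue) and twi (red), with all UMIs and after thinning to 1000 UMIs. Error bars are 95% exact binomial intervals for counting error, and the twi cycling bar stands highest for CD8 at 75% and 68.8%.

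Read the other way, 36 of 436 CD8+ T cells cycled in twi (8.26%) and 6 of 107 in WT (5.61%), a ratio of 1.47 (0.663–3.36). Among CD4+ T cells 3 of 72 cycled in twi (4.17%) and 5 of 48 in WT (10.4%), a ratio of 0.4 (0.110–1.45). Both intervals include equal shares. Foxp3, the regulatory T cell factor, was seen in 2 of 16 cycling WT cells and in 0 of 48 in twi, where a count of 0 still permits 6.25% of cells with a UMI by a limit of 3 counts. Of 5 thymocyte genes Rag1, Rag2 and Ptcra were at 0 in the cycling cells of both libraries, while Cd24a gave 4 UMIs in WT and 5 in twi and Dntt was seen in 1 WT cell. The list summed to 48.8 against 25.2 CPM in non-cycling WT cells and 13.7 against 13.2 CPM in twi. T cell receptor genes were not analysed here, and of other genes of γδ T cells Sox13, Il23r and Il17a were at 0 in the cycling cells, while Cd163l1 gave 3 UMIs in WT and 16 in twi.

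Cycling cells held transcripts of both arms of the cycle. Because the gate genes are themselves mostly G2/M genes and the 2 lists differ in abundance (1108 CPM of S and 1674 CPM of G2/M in non-cycling WT cells), the balance of S and G2/M is set in part by the rule and says nothing of the time spent in each phase. The S list holds replication genes and the G2/M list mitotic genes, and a cell was called S-leaning when over 50% of its UMIs from both lists were S transcripts. The S share of WT cells lay between 3.38% and 65.8% (median 16.5%), and 1 of 16 cells was S-leaning (6.25%, 0.158–30.2%). That of twi cells lay between 0.671% and 84.8% (median 29.2%), and 10 of 48 cells were S-leaning (20.8%, 10.5–35.0%). Since 4 WT and 13 twi cells had a share of 40 to 60%, these classes are ranges of one score and not types. Thinned to 1000 UMIs, 2 of 16 and 8 of 45 cells with any such UMI were S-leaning. The S list summed to 5261 CPM in WT and 5518 CPM in twi, twi over WT 1.05 (0.953–1.16), and the G2/M list to 18351 and 13978 CPM, twi over WT 0.762 (0.722–0.803).

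**Figure D2:**
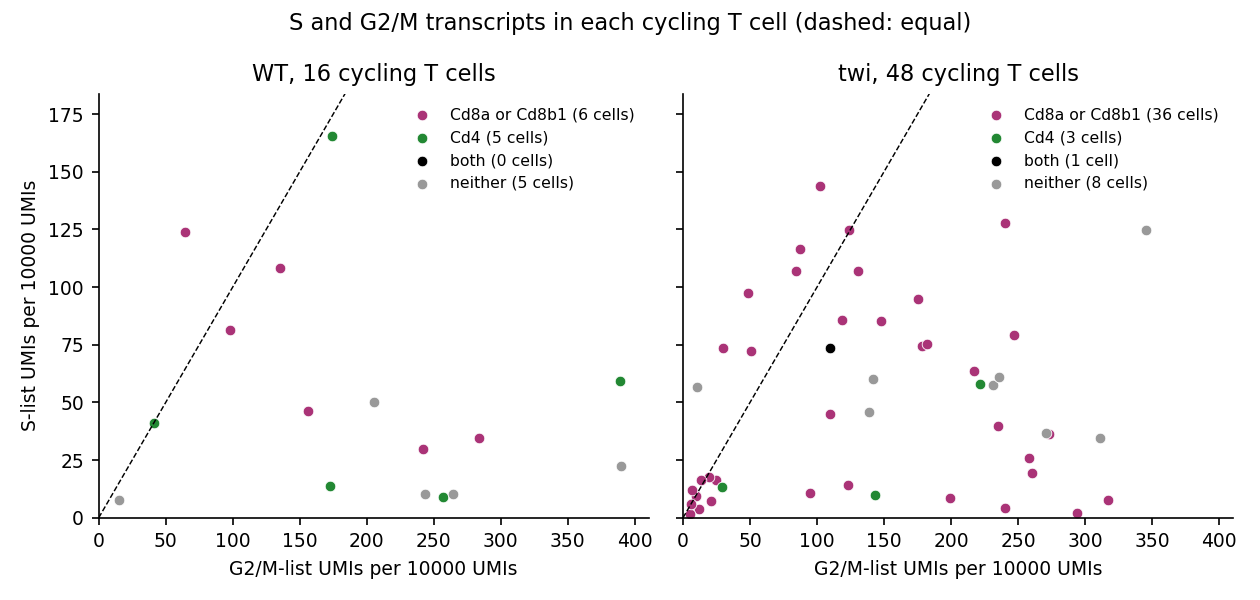
S-list UMIs (y axis) against G2/M-list UMIs (x axis), both per 10000 UMIs of the cell, for each of the 16 WT and 48 twi cycling T cells, coloured by Cd8 and Cd4. Cells above the dashed line of equal values are S-leaning (1 in WT and 10 in twi), and a group of twi cells lies near the origin with few transcripts of either list.

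Genes were next compared between cycling and non-cycling cells of the same library. Of the genes with at least 10 UMIs over both groups, 17.8% were at least 2-fold higher and 14.9% at least 2-fold lower in cycling cells of WT (7150 genes), and 10.8% and 11.4% in twi (9595 genes). The median log2 ratio over these genes was 0.21 in WT and 0.05 in twi. All cycle genes share reads of the same cells with the gate, so what follows describes the chosen cells, and a gene that reached 10 UMIs only through the cycling cells had to be higher in them.

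Mitotic genes stood highest. Of the G2/M list, 49 genes reached 10 UMIs in WT and 48 of these were at least 2-fold higher, with a median log2 ratio of 4.99, and 58 of 60 in twi, with a median of 5.30. Genes absent from non-cycling cells were then set to 3 counts there, and the medians became 4.90 and 5.16. Cdk1, the kinase that starts mitosis, was at 244 CPM in cycling and 4.81 CPM in non-cycling WT cells and at 183 and 3.10 CPM in twi, 50.8 and 59.0 times higher. Its cyclin partners Ccnb1 and Ccnb2 were 227 (37.6–9299) and 76.3 times higher in WT and 96.3 and 97.8 times higher in twi, although Ccnb1 rested on 1 and 3 UMIs in the non-cycling cells. Ube2c, the enzyme that feeds ubiquitin to the anaphase-promoting complex, was 96.3 (44.7–247) and 53.8 (33.2–91.9) times higher. Spindle and cytokinesis genes reached a median log2 ratio of 5.68 in WT, or 4.83 with 7 genes absent from non-cycling cells at their bound. In twi it was 5.30, or 5.22 with 1 gene at its bound. Kinetochore genes stood at 4.78 and 5.29, among them Cenpa, the centromeric histone, at 18.1 (11.7–28.6) and 21.6 (15.3–31.0) times the non-cycling level.

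Most promoter windows of the G2/M and gate genes, though not all, carried elements known from G2/M control. A script searched RefSeq windows from 250 bases before to 50 bases after each start (build GRCm38.p6) on both strands for the CHR TTTGAA, for CCAAT, and for the E2F octamers TTTGGCGC, TTTCCCGC, TTTGCCGC and TTTCGCGC. Of the 66 G2/M and gate genes, 58 matched by symbol with 64 windows, and 42 windows (65.6%) held a CHR, against 17.9% of all 32851 windows. CHR and CCAAT stood together in 53.1% of them against 6.95% of all. E2F octamers were in 6.25% of the G2/M and gate windows and 2.26% of all. The S list was matched only for 37 of 51 genes, under 80%, which leaves its comparison with other windows void. Its 43 matched windows held an E2F octamer in 39.5%, a value that describes the matched genes only. The 150 bases before the start are shown for 5 G2/M genes that hold a CHR and for 1 S-phase gene that holds an E2F octamer. They were picked for these motifs, which are in capitals together with CCAAT and the reverse complements. Over the same 150 bases Ccnb1, Ccnb2, Plk1 and Cenpf held CCAAT but no CHR, and Nusap1 and the gate gene Birc5 held neither. Of other replication genes, Cdc6 held an E2F octamer there, while Rrm2, Pcna, Mcm3, Tyms and Tk1 held none. A match is a string of letters and not evidence of binding.
Cdk1, chr10:69352913-69353062, minus strand: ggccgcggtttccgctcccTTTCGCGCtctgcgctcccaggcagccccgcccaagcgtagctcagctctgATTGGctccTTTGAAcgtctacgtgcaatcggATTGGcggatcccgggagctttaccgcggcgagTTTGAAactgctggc
Top2a, chr11:99024190-99024339, minus strand: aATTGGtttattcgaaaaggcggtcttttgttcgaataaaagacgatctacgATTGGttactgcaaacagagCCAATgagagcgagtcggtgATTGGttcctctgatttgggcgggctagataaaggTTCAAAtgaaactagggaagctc
Mki67, chr7:135716380-135716529, minus strand: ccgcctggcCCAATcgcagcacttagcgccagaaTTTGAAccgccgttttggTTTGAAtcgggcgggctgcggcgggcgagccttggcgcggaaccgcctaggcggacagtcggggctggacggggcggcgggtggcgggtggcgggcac
Cdc20, chr4:118437344-118437493, minus strand: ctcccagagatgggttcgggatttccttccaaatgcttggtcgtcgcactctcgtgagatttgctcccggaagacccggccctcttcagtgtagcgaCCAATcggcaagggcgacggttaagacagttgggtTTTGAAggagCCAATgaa
Ube2c, chr2:164769779-164769928, plus strand: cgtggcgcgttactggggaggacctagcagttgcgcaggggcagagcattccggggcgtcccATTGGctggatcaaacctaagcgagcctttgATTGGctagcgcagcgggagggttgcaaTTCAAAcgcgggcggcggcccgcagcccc
Mcm5, chr8:75109359-75109508, plus strand: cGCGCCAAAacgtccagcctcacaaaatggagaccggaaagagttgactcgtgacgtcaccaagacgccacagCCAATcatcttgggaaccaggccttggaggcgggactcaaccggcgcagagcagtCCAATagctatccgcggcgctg

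Cdk1 shows 2 CHR strings and an E2F octamer, and Mki67 2 CHR strings close to each other. Cdc20, the activator of the anaphase-promoting complex, ends with a CHR between its 2 CCAAT boxes, and was 34.1 times higher in cycling WT cells and 61.3 times higher in twi. In Mcm5 no TTTGAA was found in the bases printed.

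Replication genes formed a lower step. In WT 37 genes of the S list were measured and 32 were at least 2-fold higher, with a median log2 ratio of 2.25, and in twi 43 of 50 with a median of 2.28. Pcna, the sliding clamp of DNA polymerase, was at 351 against 72.1 CPM in WT and 369 against 76.0 CPM in twi, 4.87 (3.13–7.49) and 4.85 (3.87–6.07) times higher. Mcm5, a subunit of the replicative helicase, was 6.28 and 4.63 times higher. The DNA licensing and fork list gave 23 of 26 genes in WT and 25 of 31 in twi at least 2-fold higher, with medians of 2.04 and 2.03. Deoxynucleotide enzymes had medians of 1.33 and 1.13, with 9 of 14 and 9 of 18 genes at least 2-fold higher. Among them Rrm2, the regulated subunit of ribonucleotide reductase, stood at 59.6 (25.3–171) and 45.1 (29.5–71.8) times the non-cycling level, and Tyms, thymidylate synthase, at 28.9 and 13.9.

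Histone and chromatin genes were at least 2-fold higher for 19 of 21 genes in WT and 23 of 25 in twi. Hmgb2, a DNA-bending protein, was the most abundant of those described at 5174 CPM in WT and 3907 CPM in twi, 11.9 (10.4–13.6) and 10.7 (9.82–11.6) times the non-cycling level. Hist1h2ap, a replication-dependent H2A histone, was at 830 CPM in WT and 1157 CPM in twi, from 25.2 and 14.4 CPM outside the cycle. Most replication-dependent histone mRNAs lack a poly(A) tail, so a poly(A) library counts only part of them, and close copies can share reads. Condensin and cohesin genes had median log2 ratios of 1.64 and 3.14, and genes of the cyclosome 2.06 and 1.55.

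Cyclins split by phase. Ccna2, the cyclin of S and G2 phase, was 268 and 82.2 times higher in cycling cells of WT and twi, from 1 and 6 UMIs in non-cycling cells. Ccne1, the cyclin of S-phase entry, was 9.48 (2.73–34.1) and 10.4 (5.38–20.4) times higher. Ccnd2, a D-type cyclin that acts before the restriction point, was lower, at 205 against 405 CPM in WT and 282 against 586 CPM in twi, ratios of 0.506 (0.309–0.786) and 0.480 (0.390–0.587). Ccnd3 stood at 1.03 and 0.890 of the non-cycling level.

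Genes that hold T cells at rest lay on both sides, with more of them lower. Of the 21 measured genes of the list of kinase inhibitors and quiescence factors, 14 were lower in WT (4 of them at least 2-fold) with a median log2 ratio of -0.41, and 16 were lower in twi (6 at least 2-fold) with a median of -0.71. Their 2-fold shares are read against the 14.9% of WT and 11.4% of twi genes at least 2-fold lower, and 4 of 21 in WT is near that background. Btg1, an antiproliferative gene of resting lymphocytes, was at 566 against 1822 CPM in WT and 798 against 1755 CPM in twi, ratios of 0.311 (0.235–0.404) and 0.455 (0.403–0.512). Its relative Btg2 stood at 0.333 and 0.376. Klf2, which keeps T cells quiescent and recirculating, stood at 0.854 (0.716–1.01) and 0.609 (0.526–0.701), and Txnip, which restrains glucose uptake, at 0.340 and 0.426. In the same list the inhibitors Cdkn2c and Cdkn2d, which block Cdk4 and Cdk6, were higher, at 24.4 and 2.05 times in WT and 4.76 and 2.18 times in twi, although Cdkn2d stood at 0.649 in WT thinned to 1000 UMIs and gated again.

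**Figure D3:**
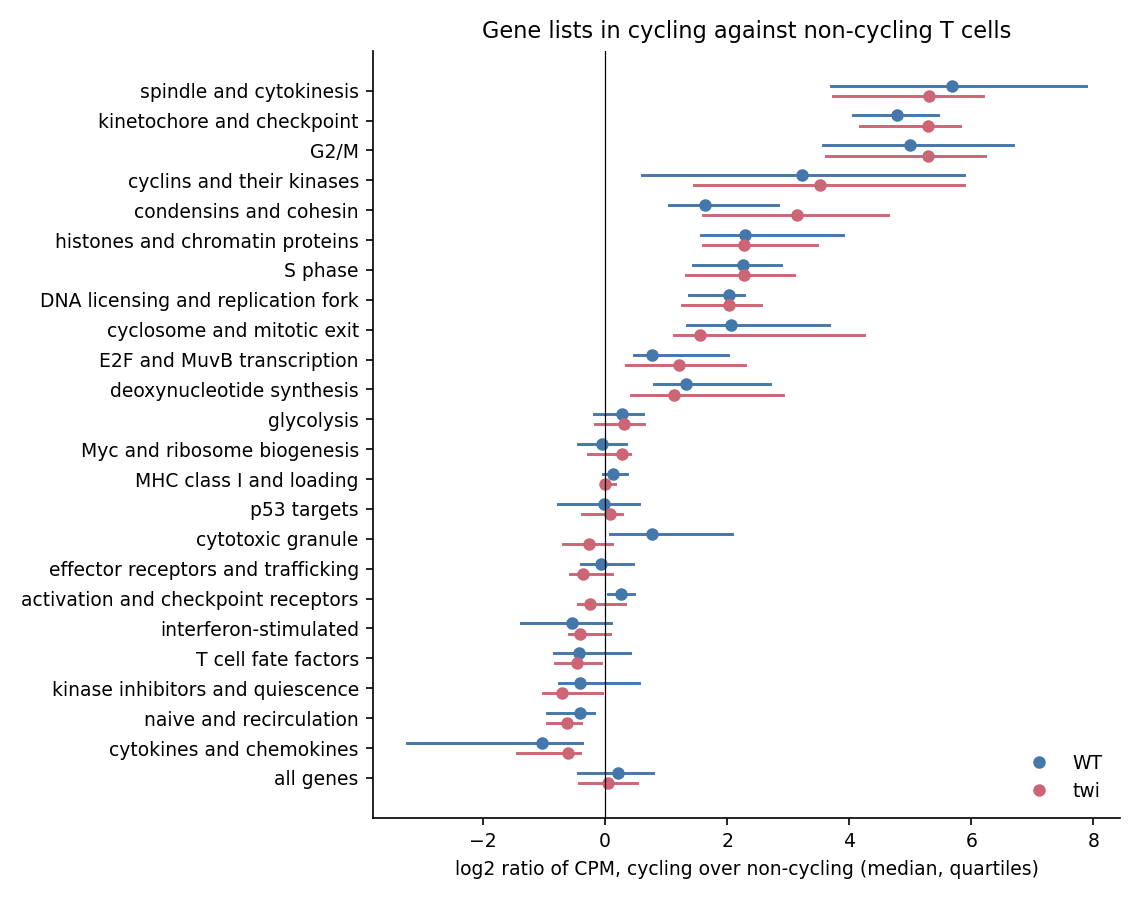
Median (point) and quartiles (line) of the log2 ratio of CPM, cycling over non-cycling T cells (x axis), over the genes of each list with at least 10 UMIs, for WT (blue) and twi (red). Cycle lists lie to the right of 0 in both libraries, quiescence, naive and cytokine lists to the left, and the cytotoxic granule list on opposite sides at 0.77 and -0.26.

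Naive and recirculation genes were lower in cycling cells of twi, and in WT the side depended on the setting. In WT 11 of 12 genes were lower with a median log2 ratio of -0.41, and in twi 12 of 12 with a median of -0.62. The list summed to 3621 against 5039 CPM in WT, a ratio of 0.719 (0.645–0.799), and to 1430 against 2450 CPM in twi, a ratio of 0.584 (0.533–0.638). With every cell thinned to 1000 UMIs and gated again, which left 11 cycling WT and 18 cycling twi cells, the sums stood at 1.06 (0.810–1.35) in WT and 0.469 (0.297–0.706) in twi. Il7r, the receptor for the survival cytokine IL-7, stood at 0.484 (0.287–0.768) in WT and 0.211 (0.122–0.341) in twi. Ccr7, which leads T cells to lymph nodes, stood at 0.510 and 0.315. Dapl1, a gene of naive and memory T cells, rested on 5 and 8 UMIs and stood at 0.137 and 0.196. Summed naive transcripts per cell were 1.53 times higher in cycling WT cells and 1.19 times higher in twi, since the cells were deeper.

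Effector genes lay on both sides of the non-cycling level. In twi, Nkg7, a granule protein of cytotoxic cells, was at 1698 CPM in cycling and 1740 CPM in non-cycling cells, a ratio of 0.976 (0.896–1.06), and was seen in 45 of 48 cycling cells. As a background, 10.7% of twi B cells and 12.5% of twi neutrophils carried an Nkg7 UMI. Ccl5, the most abundant chemokine, ran from 0 to 215 UMIs per cycling twi cell with a median of 9, and was at 3144 against 4974 CPM, a ratio of 0.632 (0.595–0.672). Gzmb, the apoptosis-inducing granzyme B, was at 191 against 370 CPM, a ratio of 0.518 (0.4–0.660). The share of cells with a Gzmb UMI went the other way, at 17 of 48 cycling (35.4%) and 191 of 687 non-cycling cells (27.8%). At 1000 UMIs per cell these shares were 22.9% and 16.1%. Twi B cells carried Gzmb in 3.36% and Ccl5 in 26.2%, and twi neutrophils in 7.81% and 31.2%. Gzmk, a granzyme of memory-type CD8+ cells, was higher at 128 against 59.0 CPM, a ratio of 2.18 (1.54–3.04). Prf1, perforin, gave 0 UMIs in the cycling and 38 in the non-cycling twi cells. Ccl4 stood at 0.333 (0.206–0.510), or 1.25 (0.336–3.28) thinned and gated again, and was 0 against 119 UMIs in WT. The list of cytokines and chemokines had a median log2 ratio of -1.04 in WT and -0.61 in twi (-0.42 with genes at their bound), effector receptors -0.07 (0.15 with 2 genes at their bound) and -0.36, activation receptors 0.27 and -0.24, T cell fate factors -0.43 and -0.46 (-0.23 at the bound), and p53 targets -0.02 and 0.09. Over the cytotoxic granule list 10 of 14 genes were lower in twi, with a median log2 ratio of -0.26 and a summed ratio of 0.872 (0.824–0.921). As a mean of CPM over cells that ratio was 1.07, and thinned to 1000 UMIs and gated again it was 0.967 (0.753–1.22).

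Most of these twi values were similar when both groups were restricted to CD8+ cells. Gzmb then stood at 0.513 (0.389–0.667), Ccl5 at 0.586 (0.547–0.626), Gzmk at 1.65 (1.15–2.34), Ly6c2 at 0.566 (0.506–0.632) and Il7r at 0.187 (0.0887–0.349). Gzma stood at 1.32 (1.10–1.58) among CD8+ cells and 0.762 (0.639–0.902) over all T cells, but 1 cell held 52 of its 150 UMIs in cycling twi cells, so its side among CD8+ cells rests largely on that cell. The receptors Lag3 and Pdcd1, which restrain activated T cells, stood at 3.06 (1.37–6.58) and 2.37 (1.13–4.73) but rested on 13 and 14 UMIs in all cycling twi cells. Over all twi T cells Lag3 stood at 2.86 (1.38–5.61), and at 0 (0–14.2) thinned and gated again. Tbx21 and Eomes, factors of effector and memory CD8+ cells, stood at 1.85 (1.12–2.96) and 1.84 (1.08–3.04). Itgb1, the β1 integrin chain, was higher over all T cells at 465 against 289 CPM, a ratio of 1.61 (1.35–1.90).

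**Figure D4:**
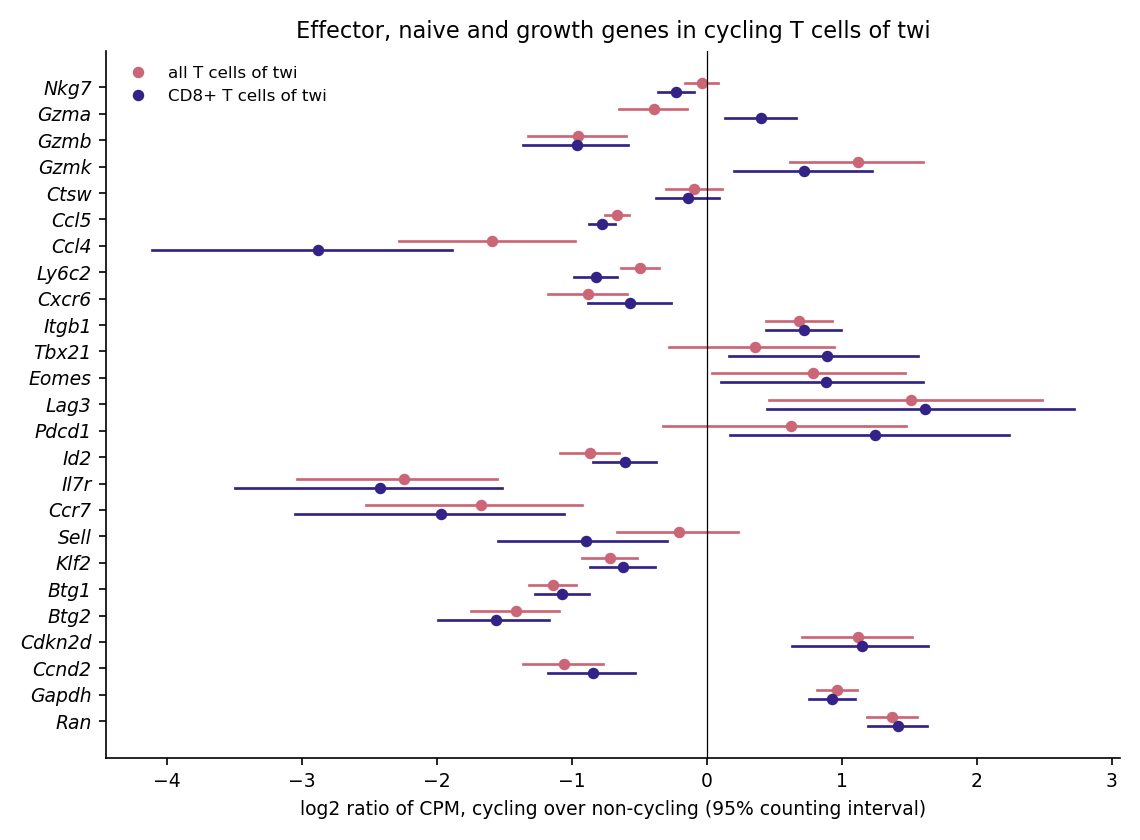
Log2 ratio of CPM, cycling over non-cycling (x axis), with 95% counting intervals, for effector, naive and growth genes in all T cells (red) and CD8+ T cells (dark blue) of twi. Il7r, Ccr7, Ccl4, Btg2 and Gzmb lie left of 0 in both, Gzmk, Itgb1, Lag3, Cdkn2d, Gapdh and Ran right of 0, and Gzma, with 52 of 150 cycling UMIs in 1 cell, on opposite sides.

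In WT the granule genes rested on few cells. The cytotoxic granule list summed to 6023 against 3227 CPM, a ratio of 1.87 (1.71–2.04), with 10 of 13 genes higher. A single cell, the deepest at 24127 UMIs, held 34 of 36 Gzmb UMIs and all 22 Gzmk UMIs, and another held 154 of 232 Gzma UMIs. That second cell had 2 Cd3 UMIs, 0.644% of its UMIs in a list of NK cell genes, and 37 of the 44 UMIs of Klra7, an NK cell receptor. Without cells that had 0.5% or more of UMIs of another class the list stood at 1.28, with Gzma at 1.12. Without the deepest cell the list stood at 1.58 and Gzmb at 0.304, against 4.18 (2.71–6.33) with it. Leaving out other classes gave a list ratio of 0.886 in twi.

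Summed markers of monocytes and macrophages were lower in cycling than in non-cycling cells, while more cycling cells carried a Lyz2 UMI. Neutrophil genes summed to 1308 against 1513 CPM in WT and 686 against 444 CPM in twi, and NK cell genes summed to 849 against 602 CPM in WT and 238 against 511 CPM in twi. By a limit of 0.5% of UMIs 2 of 16 cycling WT cells counted as NK, and in twi 1 of 48 as NK and 1 as neutrophil, a cell with 65 UMIs of Elane and 36 of Mpo, enzymes of neutrophil precursors, but 1 Cd3 UMI and 74 of the 462 Ly6c2 UMIs. Among non-cycling cells 17 of 276 in WT and 36 of 687 in twi crossed it, with 7 and 22 counted as monocyte or macrophage and 7 and 14 as NK. The list of monocyte and macrophage genes summed to 342 CPM in cycling against 2060 CPM in non-cycling WT cells and to 402 against 2452 CPM in twi, led by Ccr2 in the first and Lyz2 in the others. A single non-cycling WT cell held 427 of the 1714 UMIs. Lyz2 was seen in 8 of 16 cycling and 68 of 276 non-cycling WT cells and in 21 of 48 and 199 of 687 twi cells, and at 1000 UMIs per cell in 0 of 16, 29 of 257, 3 of 48 and 84 of 677. Among CD8+ twi cells the list had a median log2 ratio of 0.48 over 6 genes and a summed ratio of 0.419 (0.333–0.521). Of its 10 genes 7 were detected in the cycling cells of each library, with Csf1r, C1qc and P2ry12 at 0 in WT and C1qa, P2ry12 and Tmem119 at 0 in twi. Red cell genes summed to 708 CPM in cycling and 4436 CPM in non-cycling twi cells, 1 of which held 7670 such UMIs. Dendritic cell genes gave 0 and 1 UMI in the cycling cells.

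Genes outside the cycle lists were ranked by their ratio. Of genes with at least 100 CPM and 25 UMIs in the higher group, the lowest ratios in both libraries included Lyz2 (0.0883 and 0.0941), Apoe (0 against 145 UMIs, and 0.0733), Ifitm3 (0.141 and 0.159), Ctss (0.199 and 0.284) and Cd74 (0.223 and 0.379), all abundant in myeloid or antigen-presenting cells. Without cells of another class Apoe stood at 1.07 in twi and Ifitm3 at 2.12 in WT. Among CD8+ twi cells Lyz2 stood at 0.114 (0.0672–0.181), Ifitm3 at 0.4 and Ctss at 0.509. Among CD8+ cells Cd74 stood at 1.64 in WT and 0.867 in twi. The immediate early genes Fos (0.267 and 0.204), Jun (0.311 and 0.350) and Junb (0.316 and 0.341) were lower too, and stood at 0.190, 0.445 and 0.384 among CD8+ twi cells. Thinned and gated again, Jun stood at 1.22 (0.738–1.89) in twi. Tissue dissociation is known to induce these 3 genes.

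The highest ratios outside the lists were led by 2810417H13Rik, which encodes the PCNA-associated factor PCLAF, at 333 (89.3–2796) times in WT and 65.5 (45.1–98.1) times in twi. Lmnb1, a lamin of the nuclear envelope, was 19.1 and 8.76 times higher, and Lockd, a noncoding RNA beside Cdkn1b, 14.6 and 10.4 times. Alyref and Snrpd1, which act in mRNA export and splicing, were 4.72 and 3.91 times higher in WT and 3.77 and 3.01 times higher in twi. Ran, the GTPase of nuclear transport, was 3.79 and 2.60 times higher, Cbx3 3.11 and 3.13 times (1.84 in WT without the deepest cell, and 1 cell held 35 of 64 WT UMIs), and Anp32b 2.94 times in both. Tuba1a, an α-tubulin, was 3.78 and 2.70 times higher and 2700094K13Rik 5.31 and 3.47 times.

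Growth genes differed less. The glycolysis list summed to 1.46 times the non-cycling level in WT (1.31–1.62) and 1.34 times in twi (1.27–1.42), with medians of 0.27 (0.37 with 1 gene at its bound) and 0.31 on the log2 scale. Gapdh stood at 2.26 and 1.95, and Ldha, lactate dehydrogenase, at 2.01 and 1.44. The list of Myc targets and ribosome biogenesis summed to 1.08 (0.974–1.19) in WT and 1.35 (1.29–1.42) in twi. Class I antigen presentation was level, with summed ratios of 1.02 (0.961–1.08) and 0.980 (0.953–1.01), and B2m at 0.947 and 0.955.

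The last comparison set cycling twi cells against cycling WT cells. Of 5225 genes with at least 10 UMIs, 10% were at least 2-fold higher and 9.78% at least 2-fold lower in twi, and among non-cycling cells 7.09% and 4.69% of 9758 genes. The groups differed in more than genotype, since CD8+ cells made up 75% and 37.5% of them, and Xist was seen in 27 of 48 twi cells (56.2%) and 0 of 16 WT cells, which by the same limit of 3 counts still permits 18.8%. Among non-cycling T cells Xist was seen in 367 of 687 twi cells (53.4%) and 0 of 276 WT cells, where the limit is 1.09%. A Y transcript was seen in 17.2% of those twi and 44.2% of those WT cells. Library and genotype cannot be told apart here, and the sex transcripts differed along with both. WT values rest on 16 cells.

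Interferon-stimulated genes were higher in twi. In cycling cells 29 of 33 genes were higher, 22 of them at least 2-fold, with a median log2 ratio of 1.53, or 1.28 with 5 genes absent from 1 group at their bound. In non-cycling cells 42 of 42 were higher, 29 at least 2-fold, with a median of 1.21. The list summed to 5395 CPM in twi and 2987 CPM in WT cycling cells, a ratio of 1.81 (1.60–2.04), beside 2.23 (2.14–2.33) in non-cycling cells. Isg15, a ubiquitin-like interferon response protein, gave 89 UMIs in 21 twi cells and 1 UMI in WT, a ratio of 24.9 (4.36–996), beside 5.69 in non-cycling cells. Bst2, the antiviral protein tetherin, was at 276 against 29.3 CPM, a ratio of 9.43 (3.14–46.5), and Irf7, a factor that amplifies interferon output, was 3.14 times higher (1.27–10.0). Among CD8+ cycling cells alone the list ratio was 2.39 (2.01–2.87), and among cells with a Y transcript and no Xist 1.61 (1.34–1.92). Between cycling and non-cycling cells of 1 library the side of this list depended on the setting. In twi 30 of 42 genes were lower, with a median of -0.42 and a summed ratio of 0.830 (0.791–0.869), but the ratio was 1.11 (0.929–1.32) thinned and gated again and 1.08 as a mean of CPM over cells. In WT the median was -0.54, or -0.02 with 5 genes at their bound, while the sum stood at 1.03 (0.909–1.16), and at 1.22 (1.07–1.38) without the deepest cell and 1.19 (1.05–1.34) without cells of another class. It stood at 0.882 (0.731–1.06) among CD8+ cells and at 0.937 (0.830–1.05) against non-cycling cells with 0 or 1 gate UMI.

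Naive genes were lower in twi. In cycling cells 11 of 12 were lower, 10 at least 2-fold, with a median log2 ratio of -1.41 and a summed ratio of 0.395 (0.345–0.452), beside -1.15 and 0.486 (0.468–0.506) in non-cycling cells. Klf2 was at 577 against 1445 CPM, a ratio of 0.399 (0.322–0.496), and Tcf7 and Satb1, factors of naive T cells, stood at 0.384 and 0.373. Rasgrp2, a Rap1 activator of integrin adhesion, stood at 0.382 and Rab11b, of vesicle recycling, at 0.364. Among CD8+ cycling cells the list ratio was 0.418 (0.349–0.502), and among cells with a Y transcript and no Xist 0.410 (0.321–0.519).

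Tissue and effector genes of the twi cells pointed both ways. Ccl5 was higher, at 3144 against 1640 CPM, a ratio of 1.92 (1.63–2.27), but 0.688 (0.528–0.891) among cells with a Y transcript and no Xist. Of its 168 WT UMIs 76 and 69 came from 2 cells, the second of them above the limit for NK genes, and without cells of another class the ratio was 3.07. Cxcr6, a chemokine receptor of tissue-resident T cells, was 4.24 times higher (1.99–10.8, or 12.1 without the deepest cell of each library, which in WT held 5 of 7 UMIs), Ly6c2, a surface marker of activated and memory CD8+ cells, 2.75 times (2.04–3.80, or 15.03 without the deepest cell of each library, which in WT held 40 of 47 UMIs), and Rgs1, a brake on chemokine receptors, 13.0 times (3.51–109). Ly6c1, a relative of Ly6c2, gave 102 UMIs in twi and 1 in WT. Xcl1, the chemokine that attracts cross-presenting dendritic cells, gave 75 UMIs in 21 of 48 twi cells and 0 in WT. Among non-cycling cells Cxcr6, Rgs1, Ly6c1 and Xcl1 were higher in twi too, 3.31, 2.88, 5.99 and 2.59 times. Itm2a was 3.41 times higher in cycling cells and stood at 0.742 in non-cycling cells, but 54 of its 73 UMIs in cycling twi cells came from 1 cell. Gzma was lower at 410 against 2265 CPM, a ratio of 0.181 (0.146–0.223), as were Klra7 at 0.108 and Serpinb6b at 0.269. Single WT cells held 154 of 232 Gzma, 37 of 44 Klra7 and 16 of 25 Serpinb6b UMIs. The other 7 Klra7 UMIs of WT came from another cell above the limit for NK genes. Among CD8+ cycling cells Gzma stood at 0.528 (0.387–0.730) and Serpinb6b at 0.181 (0.0883–0.368). Klra7 turned there, with 0 UMIs in WT and 9 in twi. The cytotoxic granule list stood at 0.646 (0.587–0.711), at 0.809 among CD8+ cells, at 0.748 among cells with a Y transcript and no Xist, and at 1.04 without the cells above the 0.5% limit. S100a8, a neutrophil gene, stood at 0.270 in cycling and 0.289 in non-cycling cells.

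**Figure D5:**
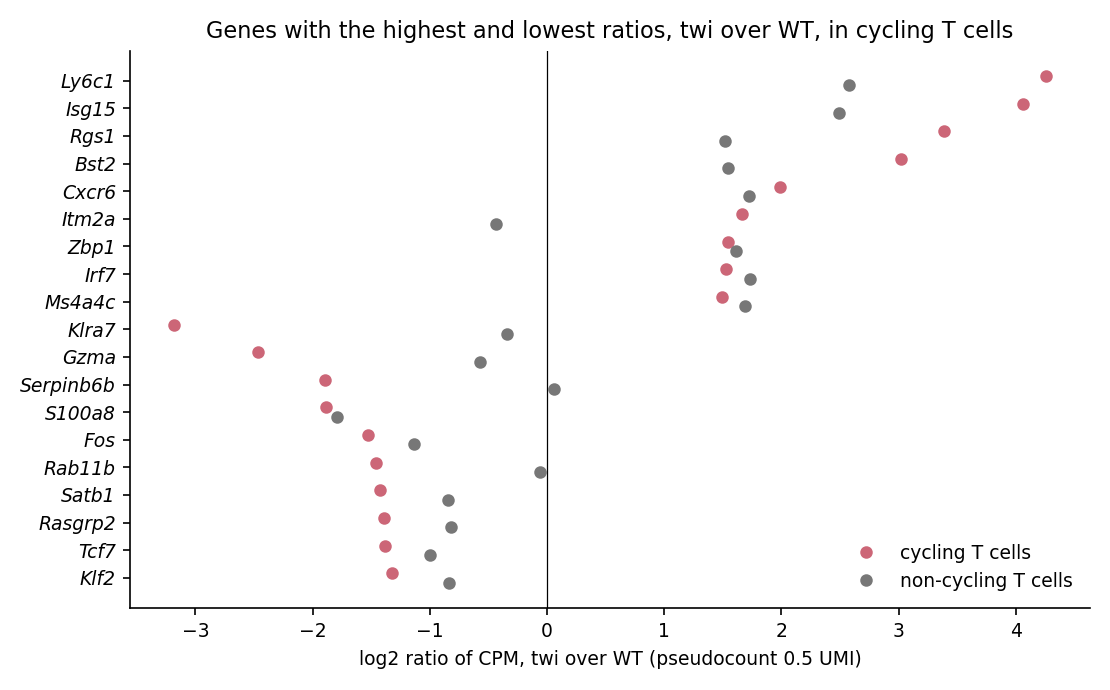
Log2 ratio of CPM, twi over WT (x axis), in cycling (red) and non-cycling (grey) T cells for the genes with the highest and lowest ratios in cycling cells, Xcl1 left out because WT had 0 UMIs. Points of Cxcr6, Zbp1, Irf7, Ms4a4c and S100a8 lie close together in both groups, while Itm2a, Serpinb6b, Gzma and Klra7 lie apart. The difference between the groups was not tested.

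Cycle genes were also set side by side in the cycling cells of the libraries, where the share of G2/M genes at least 2-fold lower was near the background. Of the G2/M list 48 of 60 genes were lower in cycling twi cells, 6 at least 2-fold (10%, beside 9.78% of all genes), with a median log2 ratio of -0.35, and the S list had a median of 0.02. The median over all 5225 genes was -0.07. Among CD8+ cycling cells the medians were -0.21 for G2/M and -0.31 for S, beside -0.09 over all genes. Ube2c stood at 0.489 (0.371–0.649), Ccnb1 at 0.410 (0.248–0.689), and Hist1h2ae was higher at 2.09 (1.29–3.58). Of the cycling cells, 21 of 48 in twi and 2 of 16 in WT held fewer than 5 gate UMIs. Cells with 5 to 9 gate UMIs held 20632 CPM of the G2/M list in twi and 12865 CPM in WT, and those with 10 or more held 17696 and 20398 CPM. With at least 5 gate UMIs Ube2c stood at 0.638, Ccnb1 at 0.491 and Hist1h2ae at 2.78, none of them moved beyond 1.5 times.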

How the data were processed

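CD45+ brain cells pooled by genotype were profiled with the 10x Genomics single cell 3′ v2 kit, 1 library for WT and 1 for twi. The authors deposited raw UMI counts for 27998 genes per barcode that they had called as a cell; the submitters' processing notes name Cell Ranger 2.1.1 and the build mm10. T cell receptor genes were not used here. Counts were read with Python 3.11.15, numpy 2.4.6, scipy 1.17.1 and pandas 2.3.3, and plotted with matplotlib 3.10.9. UMIs were summed over the cells of a group and given as CPM. Ratios of sums have exact conditional Poisson intervals, shares have Clopper-Pearson intervals and ratios of shares score intervals, all for counting error only; the steps were tested on simulated data. No doublet caller was run, and cells with 0.5% or more of UMIs of another class were counted instead. List medians used genes with at least 10 UMIs and a pseudocount of 0.5 UMI. Thinning drew 1000 UMIs per cell and left out shallower cells.

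The gate, the lists and the rule for named genes were chosen with earlier results of these data known. Named were the gate genes and Stmn1, list members with the most UMIs or the largest ratios, and the 10 highest and 10 lowest ratios, outside the cycle lists for cycling over non-cycling cells in both libraries and over all genes for twi over WT, each with at least 100 CPM and 25 UMIs. A limit of 0.5% for other classes, leaving out the deepest cell and a limit of 5 gate UMIs were added after seeing the data. A few genes are not reported here.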

Additional observations from a re-analysis of the deposited data

Results flagged for a closer look

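The cytotoxic granule list stood on opposite sides in the libraries when UMIs were summed, with a summed CPM ratio, cycling over non-cycling, of 1.87 in WT and 0.872 in twi. Each interval excluded 1, for counting error only, and the difference was not tested. In WT 1 cell held 154 of 232 Gzma UMIs and another 34 of 36 Gzmb UMIs, and the values without cells of another class were 1.28 and 0.886. As a mean of CPM over cells both libraries lay on the same side, at 1.47 in WT and 1.07 in twi. Thinned to 1000 UMIs and gated again, WT stood at 1.44 (1.01–1.99) and twi at 0.967 (0.753–1.22).

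Barcodes above the mitochondrial limit of 15% were used in no comparison. Of 13 such barcodes in twi, 3 passed the other limits of the cycling T cell gate, and of 7 in WT 0 did. With these barcodes kept, the gate held 51 twi and 16 WT cells.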

How the results depend on the processing

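No paired analysis was possible because littermates were pooled into a single library for each genotype. With 16 and 48 cells the data could show only large differences in share, and genes with few UMIs were often at 0 in WT. Ratios were counted as moved beyond 1.5 times and shares beyond their interval. Of the main shares and list sums set beside an alternative, 184 stayed within these limits and 24 moved, and of those for single genes and list medians 3351 stayed, 551 moved and 26 turned from at least 2-fold to the other side. The causes were not tested, apart from depth, which the scale of UMIs per cell adds by construction.

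Thinning every cell to 1000 UMIs and applying the gate again, which left 11 WT and 18 twi cycling cells, gave a cycling share of 2.38% in twi and a ratio of shares of 0.579, 9.09% CD8+ among those WT cells, and twi over WT ratios of 1.11 for the cytotoxic list and 0.216 for the naive list. A limit of 3 gate UMIs gave 4.29% in twi, and a limit of 5 gave 3.31% and a ratio of 0.717. S-leaning cells were 31.2% of WT at a limit of 40% and 8.33% of twi at 60%. Among cycling cells with a Y transcript and no Xist 55.6% of 9 twi and 60% of 10 WT cells were CD8+, which turned the order of the libraries. In WT that filter dropped only cells without a Y UMI. The side of 1 also turned for the WT naive list (1.06) and the twi interferon list (1.11) when thinned, and for the twi interferon (1.08) and cytotoxic lists (1.07) as a mean of CPM. It turned too for the WT interferon list among CD8+ cells (0.882) and against non-cycling cells with 0 or 1 gate UMI (0.937). As UMIs per cell, cycling over non-cycling ratios were 3.96, 1.53 and 2.18 in WT and 1.77, 1.19 and 1.69 in twi for the cytotoxic, naive and interferon lists. The WT cytotoxic ratio was 2.84 against non-cycling cells with fewer than 2 S-list UMIs. Cytotoxic genes stood at 1.05, twi over WT, as a mean of CPM over cells and at 1.04 without cells holding 0.5% or more of UMIs of another class. Leaving out cells with 2 or more UMIs of another class left 0 of 15 WT T cells cycling (0%) and 4 of 108 twi T cells (3.70%), and the twi ratios of 1.64 for cytotoxic and 2.08 for interferon genes rest on these 4 cells. No single-gene values were taken below 5 cells.

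Single genes that turned are given as cycling over non-cycling ratios. In WT, thinning gave 0 for Gzmb, 0.649 for Cdkn2d and 2.73 for Cd74, and leaving out the deepest cell gave 0.304 for Gzmb. Against non-cycling cells with few S transcripts Ccl5 was 1.29 and Cd74 1.52, and per cell Ccl5 and Il7r were both 1.03. Among CD8+ cells Cxcr6 was 1.59, Cd74 1.64 and Klra7 0, and Klra7 was also 0 and Ifitm3 2.12 without other classes. With at least 2 Cd3 UMIs Ifitm3 was 1.52 and Cd74 1.01. In twi, thinning gave 1.25 for Ccl4, 1.22 for Jun and 0 for Lag3 and Itm2a, Itm2a was 0.737 without the deepest cell, Slfn2 1.00 per cell and Apoe 1.07 without other classes. Between genotypes, Dapl1 was 1.01 as a mean of CPM, Id2 0.878 in cells with a Y transcript and no Xist, Ifitm3 0.910 among CD8+ cells, and Itm2a 0.721 without the deepest cell. Klra7 among CD8+ cycling cells, at 0 UMIs in WT and 9 in twi, gave no finite ratio.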
